A study of Mus musculus with 6 samples.

Results

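The genes described here encode the proteases that cut the extracellular matrix and the cell surface, the inhibitors of these proteases, and the enzymes that modify, process and cross-link collagen. They were taken by symbol and not by a cut on measured values, though earlier results of these data were known when they were chosen. They comprise the Mmp, Timp, Adam, Adamts, Adamtsl and Plod families, the lysyl oxidases and the plasminogen activators with the receptor Plaur. The collagen chaperone Serpinh1, the prolyl 3-hydroxylases with Crtap, and Bmp1, Tll1, Pcolce, Colgalt1, P4ha3, Furin, Hpse and Reck were also taken. The mouse RefSeq annotation (GRCm38.p6) holds 110 such genes, and 67 of them had a row in the deposited table of 14883 genes. The other 43 had no row and were not analysed here. They comprise 13 Mmp genes, 19 Adam genes, 6 Adamts genes, Adamtsl3, Lox, Loxl1, P3h4 and P4ha3. In this table every gene had at least 10 counts over the 6 libraries.

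RNA was sequenced from B16F10luc2 cells, an established mouse melanoma line, kept on plates with an elastic bottom in DMEM with 10% fetal bovine serum at 37°C, 21% O2 and 5% CO2. For 3 samples the plates were not moved (static, the controls), and for 3 samples the plate bottom was elongated by 15% in every direction of its plane, 15 times per minute with equal stretch and relaxation phases, for 24 h (cyclic stretch). The comparison asks how this mechanical load alters expression in melanoma cells. It rests on 1 cell line without other cell types of a tumour, and nothing in the labels says that replicates were separate cultures, so a p-value here reflects only how far these samples scatter, and that scatter may be technical. Since the RNA is bulk RNA, fewer expressing cells and less RNA per expressing cell cannot be told apart.

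Total counts ran from 19469286 to 36351400 per library, and the 67 members took 0.376% to 0.427% of them. All 8 melanocyte markers (Mitf, Sox10, Dct, Tyrp1, Tyr, Pmel, Mlana and Gpr143) were in the table, with a summed level of 22491 to 24879 CPM (a gene's counts relative to the TMM-scaled library total) in static and 19923 to 20514 CPM in stretched libraries. Of these 8, Mitf was called higher, Gpr143, Tyrp1, Pmel and Dct lower, and the rest were not called. That is 62.5% called, against 50.9% of all tested genes. Markers of other cells were scarce. Of 8 fibroblast and mural markers 6 had a row, summing to 22.0 to 23.3 CPM in static and 16.5 to 18.5 CPM in stretched libraries, and Lum and Thy1 had none. Of these 6, Dcn and Acta2 were at or below 0.137 CPM in both groups, Pdgfrb and Col1a1 were called lower and Pdgfra higher. Leukocyte markers (3 of 6 with a row) summed to at most 2.45 CPM, and the endothelial and epithelial lists had 1 gene each with a row and at most 0.77 CPM. The part of these lists in the results was not tested.

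Matrix metalloproteinases (MMPs) cut collagens, laminins and other matrix proteins, either as secreted enzymes or, in the membrane-type group, from the cell surface. ADAMs release the outer parts of membrane proteins, ADAMTS enzymes cut proteoglycans and procollagens, and tissue inhibitors of metalloproteinases (TIMPs) and Reck hold these proteases in check. Collagen chains are hydroxylated and glycosylated in the endoplasmic reticulum, held in shape by the chaperone Serpinh1, trimmed outside the cell and cross-linked by lysyl oxidases. In melanoma, matrix remodelling of this kind is known to accompany invasion.

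Under cyclic stretch, the hydroxylase and chaperone genes of collagen that were called had lower mRNA levels, and the called proteases and inhibitors held both gains and losses. Timp3 and the urokinase receptor gene Plaur had the largest losses among the called members, 1.83-fold and 1.79-fold, and Serpinh1, the most abundant member, fell 1.27-fold. The sheddase gene Adam12 rose 1.88-fold, Adam19 rose from 8.68 to 13.0 CPM, and Adamts20 rose 2.16-fold. Of 4 tested lysyl hydroxylase and galactosyltransferase genes 2 were called lower, and of 4 tested prolyl 3-hydroxylase and Crtap genes 3 were. None of either group was called higher, where 24.9% of all tested genes were called higher and 25.9% lower.

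Of the 67 members 56 could be tested, and 29 of these were called (edgeR quasi-likelihood test, Benjamini-Hochberg adjusted p under 0.05 over all 12377 tested genes), 11 higher and 18 lower under stretch. That is 51.8% of the tested members, against 50.9% of all tested genes, of which 24.9% were called higher and 25.9% lower. Scaled by library size alone, 4117 genes were called higher and 2401 lower, in place of 3087 and 3211, and the members then gave 12 higher and 16 lower. The groups did not overlap in CPM for 31 members (55.4%) and for 58.5% of all tested genes. Called changes over 1.5-fold were found for 7 members (12.5%) and for 7.23% of all genes. Against a minimum change of 1.2-fold, tested with glmTreat, 13 members were called (23.2%; 5 higher, 8 lower), as were 12.9% of all genes. The share of members called at any size thus lay near the background, while the shares past 1.5-fold and past glmTreat were higher than the background, a difference that was not tested. Both shares include genes whose entry into the test depended on their level in the stretched group. Adam33 and Adamts9 are among the 7, and Adam33 is among the 13. The members' median log2 fold change was -0.01 against 0.00 for all tested genes. The sign of the members' median turned with the scaling, to 0.01 with upper quartile factors and 0.05 with library size alone.

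**Figure D1:**
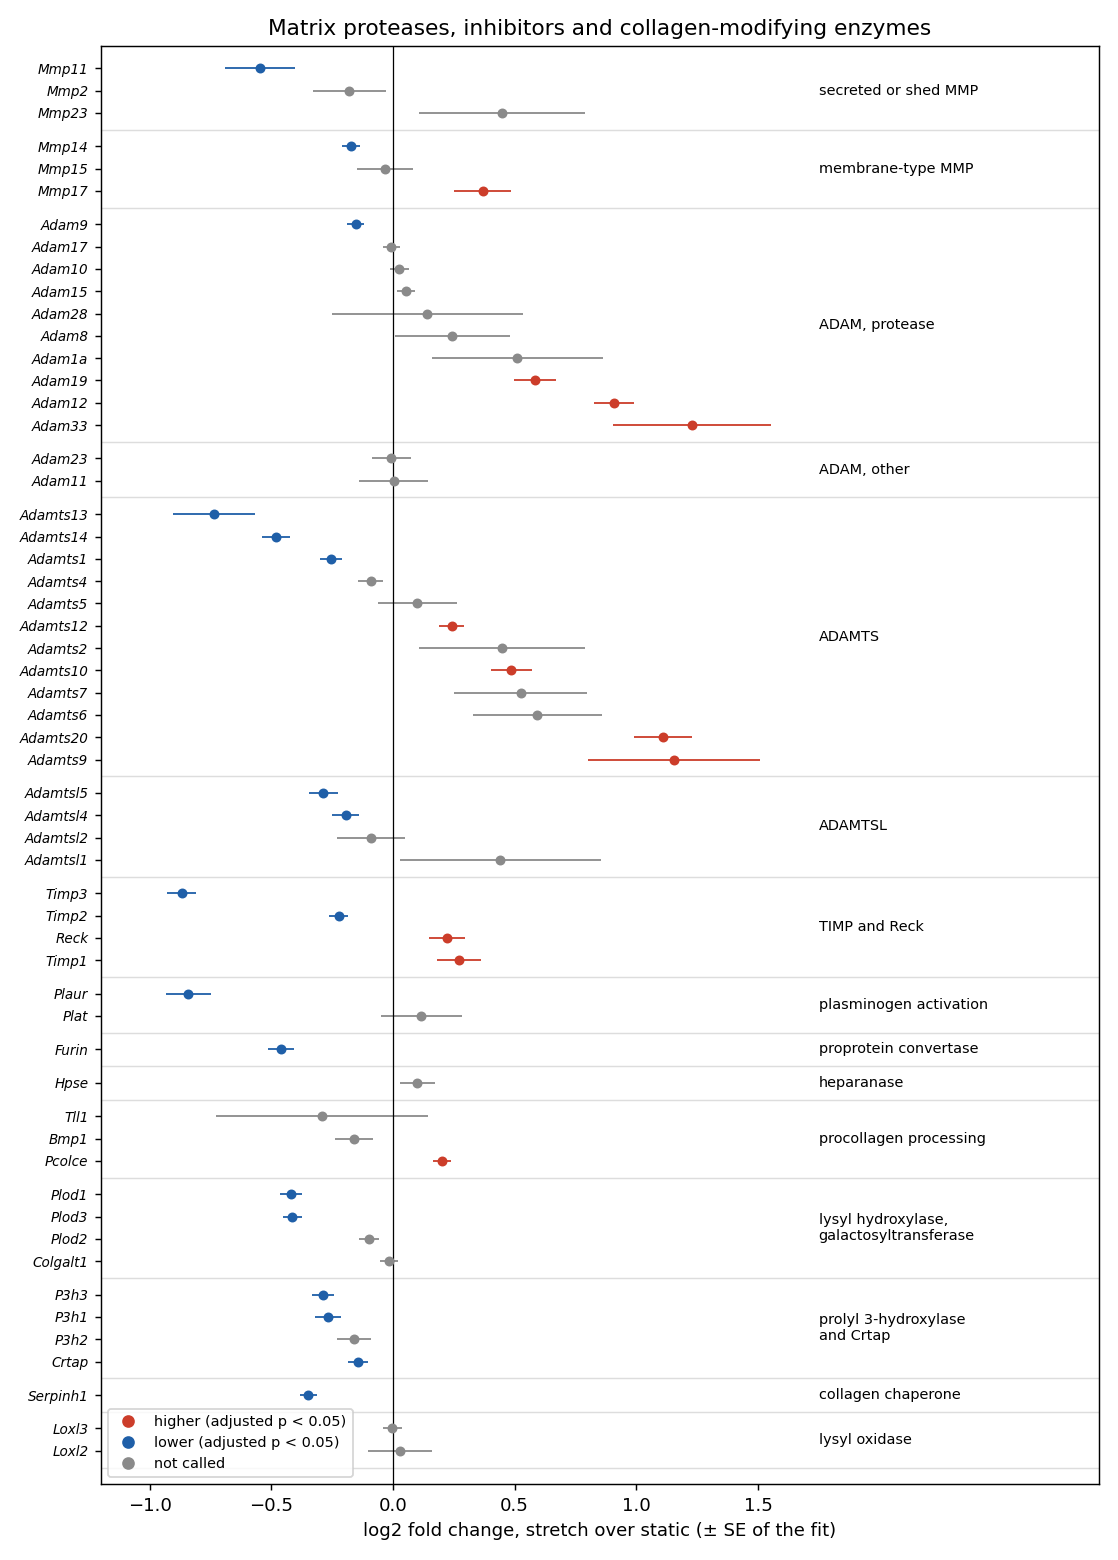
Fitted log2 fold change (stretch over static, points) with its standard error (bars) for the 56 tested members, grouped by role, with called members in colour. The hydroxylases and Serpinh1 lie at or below 0, while the ADAM and ADAMTS groups hold called members on both sides.

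The 56 tested members entered the test by different routes. A level of about 0.417 CPM was needed in 3 libraries, and 48 members met it in both groups, with 9 higher, 18 lower and 21 not called. Adam33 and Adamts9 (called higher) and Adam1a, Adamts2, Adamtsl1 and Mmp23 (not called) met it in full only in the stretched group, so their entry depended on their level there. Adam28 and Tll1 met it in a mixture of libraries. The 11 members left untested were Adam4, Adam21, Adam22, Adamts17, Loxl4, Mmp19, Mmp24, Mmp25, Mmp28, Plau and Timp4.

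Promoter sequence from RefSeq (GRCm38.p6, 250 bases before to 50 after a start) was at hand for 45 of the 67 members, with 51 promoters. An AP-1 motif (TGANTCA, both strands, the same letters on either) was found in 3.92% of member promoters and 4.81% of promoters of tested genes. The hypoxia response core (ACGTG or GCGTG, both strands) was found in 68.6% of member promoters and 62.1% of those of tested genes. It occurred in 15 of 19 promoters of members called lower, in 8 of 9 of members called higher and in 8 of 15 of members not called. These differences were not tested, and the 51 member promoters include some of members that were left untested. The ATF4 composite motif (TGATGNAA) was found in none of the 51 and in 2.20% of the promoters of tested genes. A match to any of these motifs is a description of the letters only. Stretches around matches are printed for 5 called members, chosen after their values were seen, with the motif in capitals and each read 5′ to 3′ on the gene's strand. The windows lie before an annotated start, for Plaur (chr7:24462399-24462435, plus strand) and Adam19 (chr11:46055838-46055874, plus strand) a start inside the gene's span, and for Timp3 (chr10:86300328-86300362, plus strand), Serpinh1 (chr7:99353391-99353425, minus strand) and P3h1 (chr4:119232850-119232901, plus strand) the outermost start.
Plaur, AP-1: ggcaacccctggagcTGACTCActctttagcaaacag
Adam19, AP-1: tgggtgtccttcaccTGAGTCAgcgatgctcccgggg
Timp3, hypoxia core: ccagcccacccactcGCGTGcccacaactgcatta
Serpinh1, hypoxia core: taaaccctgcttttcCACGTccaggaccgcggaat
P3h1, hypoxia core: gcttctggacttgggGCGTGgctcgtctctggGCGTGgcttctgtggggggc
The AP-1 letters thus stood before a gene that fell (Plaur) and before a gene that rose (Adam19). Bases just after the start were found in a GENCODE M21 transcript for Plaur, Serpinh1 and P3h1, but not for Adam19 or Timp3. The AP-1 letters were not found at the other annotated starts of Adam19. While the hypoxia cores printed are from genes that fell, Timp1, which rose, holds 2 such cores before its start.

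Among the MMPs, the membrane-type enzyme Mmp14 (gene 17387, chr14:54431598-54442456), which activates pro-MMP2 at the cell surface, was by far the most abundant. It measured 351, 333 and 331 CPM in the static libraries and 300, 305 and 296 CPM in the stretched ones. Every stretched library lay below every static one, and the log2 fold change was -0.17 ± 0.04 (SE, adjusted p = 0.000954), a 1.13-fold loss. With an offset for GC content and transcript length the adjusted p was 0.0517. Mmp17, a membrane-type enzyme anchored by a lipid, rose from 3.88 ± 0.434 to 5.05 ± 0.219 CPM (SD, n = 3), 1.29-fold (adjusted p = 0.0167). That call was lost without static replicate 3 (adjusted p = 0.0700), without stretch replicate 3 (0.0526) and with DESeq2 (0.0688). Mmp15 measured 6.62 ± 0.999 and 6.47 ± 0.435 CPM and was not called.

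Secreted MMPs were scarce. Mmp11, also called stromelysin-3, was the highest of them at 1.42 CPM per kilobase of transcript over the 6 libraries. It measured 3.45, 4.15 and 4.13 CPM in static and 3.01, 2.31 and 2.49 CPM in stretched libraries, without overlap, and fell 1.46-fold (adjusted p = 0.00524). Gelatinase A, Mmp2, measured 3.07 ± 0.220 and 2.78 ± 0.424 CPM and was not called (adjusted p = 0.337). Neither was Mmp23, at 0.408 ± 0.153 and 0.588 ± 0.133 CPM.

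The inhibitors moved in both directions, and all 4 that could be tested were called, where 50.9% of all tested genes were. Timp3 (gene 21859, chr10:86300412-86349505), which binds the matrix and inhibits MMPs, ADAM17 and ADAMTS enzymes, measured 44.2, 40.6 and 46.7 CPM in static and 24.7, 22.9 and 24.5 CPM in stretched libraries. The highest stretched value lay far below the lowest static one. Its log2 fold change was -0.87 ± 0.06 (adjusted p = 2.21e-08), and it lay between -0.92 and -0.81 over 16 other analysis settings. Syn3, whose annotated span overlaps Timp3 and whose reads may be shared with it, rose from 3.10 to 4.03 CPM.

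Timp2, which takes part with Mmp14 in the activation of pro-MMP2, was the most abundant inhibitor per kilobase. It measured 295, 308 and 283 CPM in static and 256, 247 and 256 CPM in stretched libraries, and fell 1.17-fold (adjusted p = 0.000201). Timp1, a soluble inhibitor, measured 6.32, 6.39 and 6.04 CPM in static and 7.45, 7.29 and 7.87 CPM in stretched libraries, with every stretched library above every static one. It rose 1.21-fold (adjusted p = 0.0201). Reck, a membrane-anchored inhibitor of MMPs, rose from 12.8 ± 0.523 to 15.1 ± 1.04 CPM, 1.17-fold (adjusted p = 0.0202).

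Both gains were close to the threshold. The Timp1 call was lost with DESeq2 (adjusted p = 0.101), without static replicate 3 (0.0633), without stretch replicate 1 (0.0551) and without stretch replicate 3 (0.0637). The Reck call was lost with DESeq2 (0.0578), without static replicate 1 (0.0708), without stretch replicate 2 (0.0515) and without stretch replicate 3 (0.0886).

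**Figure D2:**
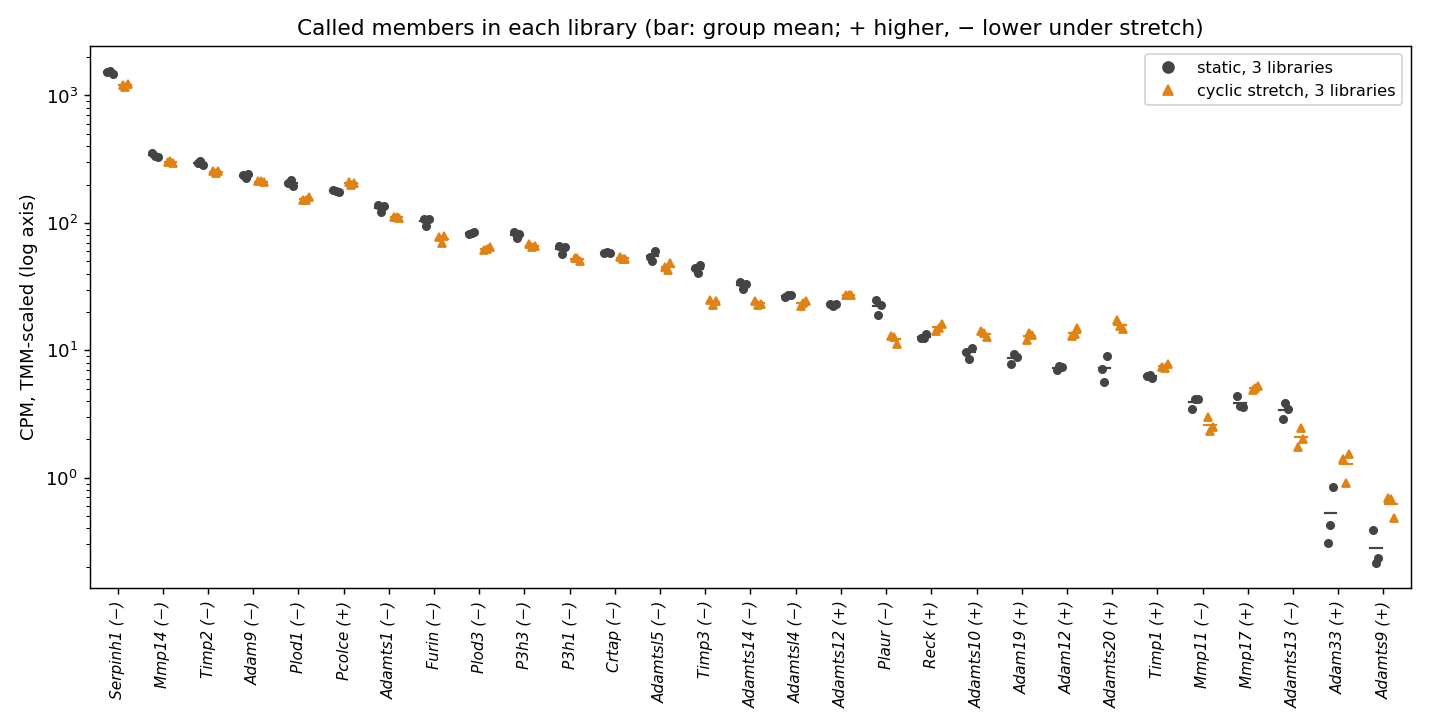
TMM-scaled CPM (log axis) of the 29 called members in each of 3 static (circles) and 3 stretched (triangles) libraries, ordered by level, with bars at the group means. Serpinh1 leads at 1529 CPM in static libraries, and Timp3 and Plaur have the widest gap between group means among the members called lower, at 1.83-fold and 1.79-fold.

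In the plasminogen system, which cuts fibrin and matrix and activates pro-MMPs, the receptor moved and the activators were scarce. Plaur (gene 18793, chr7:24460937-24475970), which holds urokinase at the cell surface, measured 25.0, 18.9 and 22.5 CPM in static and 13.1, 12.8 and 11.2 CPM in stretched libraries. The groups were well apart, with a log2 fold change of -0.84 ± 0.09 (adjusted p = 3.01e-06) that lay between -0.93 and -0.75 over the 16 other settings. Plat, tissue plasminogen activator, measured 3.19 ± 0.799 and 3.38 ± 0.119 CPM and was not called (adjusted p = 0.579). Plau, urokinase itself, had 9, 3 and 9 counts in static and 4, 3 and 6 counts in stretched libraries and was too low to test.

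The 11 ADAMs with a catalytic site summed to 133 ± 0.907 CPM per kilobase in static and 130 ± 0.617 in stretched libraries. With 3 gains and 1 loss among 10 tested genes, 40% of these ADAMs were called, against 50.9% of all tested genes. Those that rose, Adam12, Adam19 and Adam33, each lay below Adam9, Adam10, Adam15 and Adam17 in level per kilobase. Adam9, the highest ADAM at 55.1 CPM per kilobase, fell from 235 ± 7.13 to 211 ± 1.26 CPM, 1.11-fold (adjusted p = 0.00214). The main sheddases Adam10 and Adam17, which release Notch and TNF family proteins, did not pass the test. Adam10 measured 145 ± 5.31 and 147 ± 3.77 CPM (log2 fold change 0.03 ± 0.04, adjusted p = 0.600). Adam17 measured 104 ± 0.374 and 103 ± 1.04 CPM (log2 fold change -0.01 ± 0.03, adjusted p = 0.882). Adam15 measured 66.6 ± 0.964 and 69.2 ± 1.58 CPM and was not called, though it passed with library size scaling (adjusted p = 0.0182) and with the GC and length offset (0.00309).

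Adam12 (gene 11489, chr7:133883199-134225097), a sheddase known from muscle, bone and tumours, measured 6.97, 7.56 and 7.38 CPM in static and 13.0, 13.5 and 14.9 CPM in stretched libraries. The libraries of each group lay close together, and the log2 fold change was 0.91 ± 0.08 (adjusted p = 5.61e-07). Adam19, which processes neuregulins, measured 7.79, 9.31 and 8.92 CPM in static and 12.1, 13.8 and 13.2 CPM in stretched libraries, and rose by 0.58 ± 0.09 on the log2 scale (adjusted p = 6.10e-05).

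Adam33, at the edge of detection, had 8, 8 and 25 counts in static and 52, 20 and 32 in stretched libraries and was called higher (log2 fold change 1.23 ± 0.33, adjusted p = 0.00550). Adam23, the highest of the ADAMs grouped as lacking a catalytic site or uncertain in this respect, measured 9.81 ± 0.622 and 9.73 ± 0.102 CPM and was not called. Neither were Adam8, Adam11, Adam1a and Adam28. Adam1a was called higher without static replicate 3 (adjusted p = 0.0197).

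ADAMTS enzymes, secreted proteases with thrombospondin repeats, gave 4 gains and 3 losses among 12 tested genes. That is 58.3% called, against 50.9% of all tested genes. Adamts20 (gene 223838, chr15:94268314-94432074), which is needed for melanoblast survival in the mouse embryo, measured 7.13, 5.64 and 8.99 CPM in static and 17.4, 15.4 and 14.8 CPM in stretched libraries. The lowest stretched value stood well above the highest static one, and the log2 fold change was 1.11 ± 0.12 (adjusted p = 2.76e-06). Adamts10, which binds fibrillin microfibrils, rose from 9.62 ± 0.945 to 13.5 ± 0.757 CPM (adjusted p = 0.000219). Adamts12 rose from 22.9 ± 0.443 to 27.1 ± 0.227 CPM, 1.18-fold (adjusted p = 0.00119).

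Adamts9 had 10, 4 and 7 counts in static and 26, 15 and 10 in stretched libraries and was called higher at a log2 fold change of 1.16 ± 0.36 (adjusted p = 0.0137). That call was lost with DESeq2 (0.0796), without static replicate 3 (0.0596) and without stretch replicate 1 (0.0760).

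The most abundant ADAMTS gene, Adamts1, a versican and aggrecan protease, measured 137, 122 and 136 CPM in static and 112, 111 and 109 CPM in stretched libraries and fell 1.19-fold (adjusted p = 0.000245). Adamts14, which removes the amino-terminal propeptide of fibrillar procollagens, measured 34.4, 30.4 and 32.9 CPM in static and 22.9 to 24.3 CPM in stretched libraries. It fell 1.39-fold with no overlap (adjusted p = 7.54e-06). Adamts13, the protease of von Willebrand factor, fell from 3.40 ± 0.511 to 2.07 ± 0.352 CPM, 1.66-fold (adjusted p = 0.00206).

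Adamts4 measured 40.1 ± 1.61 and 37.6 ± 1.60 CPM and was not called, though it passed without static replicate 2 (adjusted p = 0.0487). The scarcer Adamts2, Adamts5, Adamts6 and Adamts7, with group means of at most 2.38 CPM, were not called. Among the ADAMTS-like genes, whose products lack the protease domain and bind microfibrils, Adamtsl5 fell from 55.0 ± 4.79 to 45.3 ± 2.76 CPM, 1.22-fold (adjusted p = 0.00107). Adamtsl4 fell 1.14-fold (adjusted p = 0.00865), a call that was lost with library size scaling (0.0549), without stretch replicate 1 (0.0723) and with the offset for GC and length (0.443). Adamtsl1 and Adamtsl2 were not called.

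The enzymes that modify collagen in the endoplasmic reticulum were lower where they were called. Plod1 (gene 18822, chr4:147909753-147936776), which hydroxylates lysines of the collagen helix, measured 206, 219 and 195 CPM in static and 151, 152 and 160 CPM in stretched libraries. The log2 fold change was -0.42 ± 0.04 (adjusted p = 2.23e-06) with no overlap. Plod3, which also adds sugars to hydroxylysine, measured 81.6, 83.2 and 84.9 CPM in static and 61.7, 61.8 and 64.2 CPM in stretched libraries and fell 1.33-fold (adjusted p = 5.87e-07). Its span overlaps Znhit1, which was also called lower.

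Plod2, which hydroxylates the telopeptide lysines that form stable cross-links, measured 84.4, 90.6 and 82.3 CPM in static and 78.3, 79.6 and 82.2 CPM in stretched libraries. Stretched values lay just below static ones and did not pass (adjusted p = 0.0673), but passed without static replicate 3 (0.0188) and with the offset for GC and length (0.00449). Colgalt1, the collagen galactosyltransferase, measured 91.1 ± 0.330 and 90.2 ± 2.61 CPM and was not called (log2 fold change -0.02 ± 0.04).

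Enzymes of the prolyl 3-hydroxylase family can modify single prolines of fibrillar and basement membrane collagens, and Crtap is the partner protein of P3h1. P3h1 measured 66.0, 56.9 and 65.2 CPM in static and 53.0, 53.3 and 50.5 CPM in stretched libraries, with no overlap. It fell by 0.27 on the log2 scale (adjusted p = 0.000652). P3h3 fell from 80.6 ± 4.30 to 66.1 ± 1.81 CPM, 1.22-fold (adjusted p = 7.76e-05).

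Crtap, the most abundant of this group per kilobase, fell by 0.14 on the log2 scale (adjusted p = 0.00788), but was not called with library size scaling (0.0912) or with the GC and length offset (0.291). P3h2 measured 17.3, 15.1 and 16.9 CPM in static and 15.0, 14.4 and 14.9 CPM in stretched libraries and did not pass (adjusted p = 0.0675), but passed without static replicate 2 (0.0146).

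Serpinh1 (gene 12406, chr7:99345375-99353239), also known as HSP47, measured 1538, 1568 and 1480 CPM in static and 1202, 1174 and 1227 CPM in stretched libraries. Both groups were tight and far apart, with a log2 fold change of -0.35 ± 0.04 (adjusted p = 1.44e-06). Per kilobase it made up 46.7% of the summed level of all 67 members in static and 43.0% in stretched libraries. That sum was 1441 ± 22.6 and 1228 ± 18.3 CPM per kilobase.

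Enzymes that act on collagen and other proteins later in secretion did not share 1 direction. Pcolce, which enhances the removal of the carboxy-terminal procollagen propeptide, measured 180, 179 and 175 CPM in static and 211, 198 and 205 CPM in stretched libraries and rose 1.15-fold (adjusted p = 0.000336). Bmp1, the protease that Pcolce assists, measured 15.2 ± 0.606 and 13.5 ± 1.28 CPM and was not called (adjusted p = 0.0983), except without stretch replicate 1 (0.0309). Furin, the convertase that activates membrane-type MMPs and ADAMs, measured 108, 94.8 and 108 CPM in static and 77.9, 69.8 and 78.3 CPM in stretched libraries. It fell 1.38-fold with no overlap (adjusted p = 6.51e-06). Tll1, a relative of Bmp1, had group means of 0.434 and 0.366 CPM and was not called.

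The lysyl oxidases that could be tested did not pass. Loxl3 measured 115 to 118 CPM in static and 112 to 121 CPM in stretched libraries (log2 fold change -0.00 ± 0.04, adjusted p = 0.966), and Loxl2 measured 6.82 to 10.4 CPM and 7.61 to 8.44 CPM (adjusted p = 0.872). Htra2, whose annotated span overlaps Loxl3 and whose reads may be shared with it, measured 117 and 119 CPM and was not called. Hpse, heparanase, which cuts heparan sulfate chains, measured 22.5 ± 2.60 and 24.0 ± 0.792 CPM and was not called (adjusted p = 0.269), except without static replicate 2 (0.0149).

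Ratios of levels per kilobase within a library place these members beside their partners, as a description without a test. For Timp2 over Mmp14 the ratio was 0.763 ± 0.0390 in static and 0.736 ± 0.0235 in stretched libraries, and the groups overlapped. Timp3 over Mmp14 stood at 0.0888 ± 0.00699 and 0.0549 ± 0.00296. Timp1 over Timp3 was 0.766 ± 0.0751 in static and 1.68 ± 0.0573 in stretched libraries. Which of this pair is the higher depends on the transcript lengths used, 883 bases for Timp1 and 4722 for Timp3. In CPM Timp3 was the higher in both groups, at 43.8 against 6.25 in static and 24.0 against 7.53 in stretched libraries.

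Plod1 over Plod2 was 2.15 ± 0.0366 and 1.73 ± 0.0201. Adam12 over Adam9 was 0.0164 ± 0.00101 and 0.0344 ± 0.00265, and Adamts20 over Adamts1 was 0.0388 ± 0.00724 and 0.102 ± 0.00766. Adam9 and Adamts1 were far more abundant in both groups than the members that rose beside them. Adam10 over Adam17 was 1.36 ± 0.0535 and 1.39 ± 0.0464, with overlap.

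**Figure D3:**
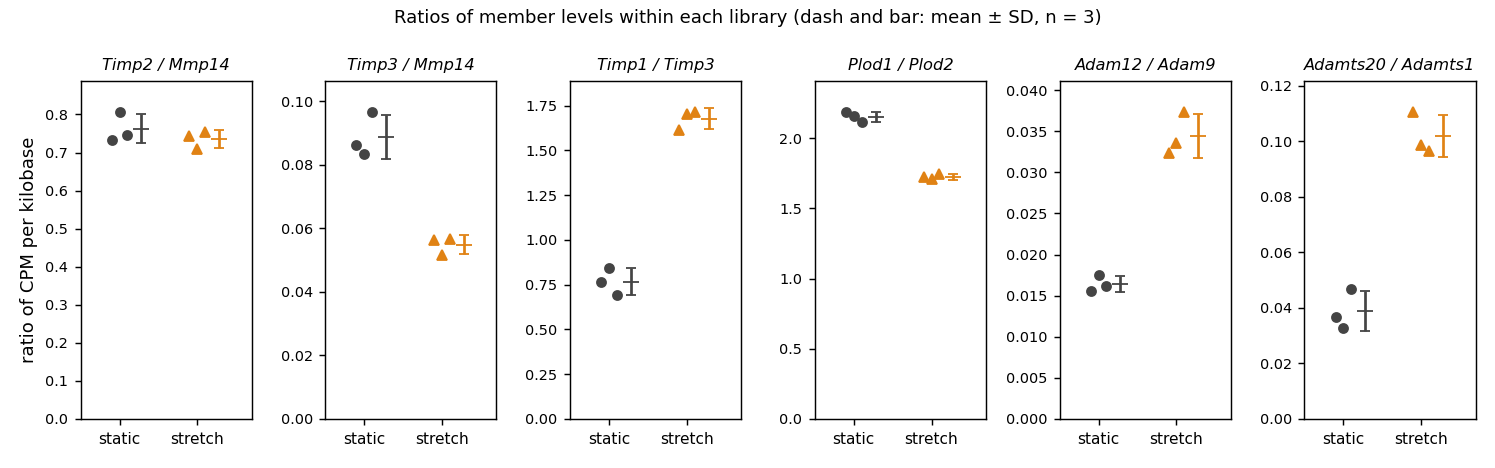
Ratio of CPM per kilobase between pairs of members in each static (circles) and stretched (triangles) library, with the mean and SD of 3 libraries beside them. The groups are apart in each panel except Timp2 over Mmp14, and the Timp1 over Timp3 ratio is 0.766 in static and 1.68 in stretched libraries.

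Called losses and gains lay at different levels. The median tested member had 2.99 CPM per kilobase over the 6 libraries. Of the 28 members at or above it, 16 were called lower and 3 higher (57.1% and 10.7%), while 30.4% and 27.2% of all genes above the same level were called lower and higher. Of the 28 members below it, 8 were called higher and 2 lower (28.6% and 7.14%), against 18.7% and 13.6% of all genes there. Adam33 and Adamts9, which passed the count filter through the stretched group, are among these 8. Reck (3.07 CPM per kilobase), Timp1 and Pcolce were the called gains above the median, and Mmp11 and Adamts13 the called losses below it.

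**Figure D4:**
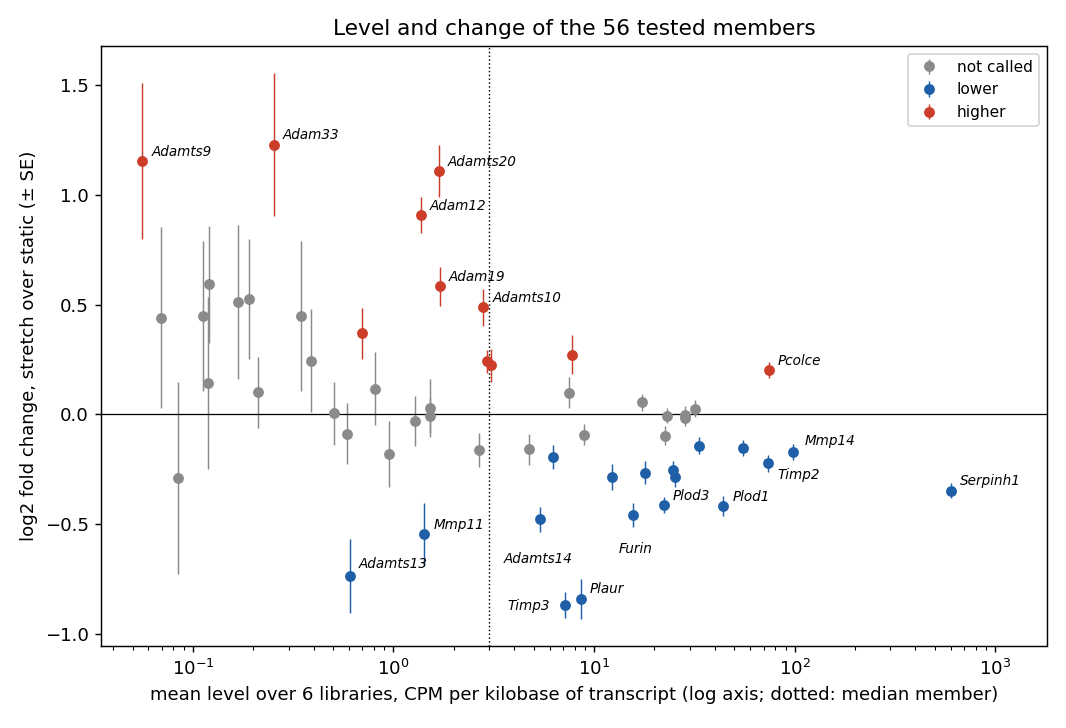
Log2 fold change (stretch over static, with SE) of the 56 tested members against their mean CPM per kilobase over 6 libraries (log axis), with a dotted line at the median member. To the right of the line 16 members are called lower and 3 higher, and to its left 8 are called higher and 2 lower.

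The genes that work with these members were taken from 7 lists of 147 symbols, of which 107 could be tested. Of these, 15 were called higher and 38 lower, or 14.0% and 35.5%, against 24.9% and 25.9% of all genes. The split moved with the settings: scaling by library size alone gave 27 higher and 29 lower, DESeq2 called 9 higher, and leaving out stretch replicate 1, 2 or 3 gave 9, 9 and 8 higher. By list, 28.6% to 58.8% of the tested genes were called in either direction, against 50.9% of all tested genes. Among 15 tested partners of collagen folding and hydroxylation, 7 were lower and none higher (median log2 fold change -0.13). P4ha1, a catalytic subunit of collagen prolyl 4-hydroxylase, measured 221 ± 11.7 and 109 ± 2.94 CPM. Its shared subunit P4hb fell from 1441 ± 66.2 to 992 ± 4.60 CPM (adjusted p = 2.93e-08), and P4ha2 from 59.6 ± 3.79 to 36.6 ± 1.49 CPM (adjusted p = 7.03e-08). The losses of Plod1, Plod3, P3h1, P3h3 and Serpinh1 thus stood beside losses of the prolyl 4-hydroxylase genes.

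Of 7 tested genes of the plasminogen system and serpins, 2 were lower and none higher. Anxa2, a plasminogen-binding annexin, fell 1.24-fold (adjusted p = 8.44e-05), and Serpinf1 fell 1.35-fold (adjusted p = 0.00383). Of 17 tested activators, partners and anchors of metalloproteases, 3 were higher and 7 lower. Tspan17, a tetraspanin that escorts ADAM10, fell from 23.2 ± 0.611 to 13.9 ± 0.856 CPM (adjusted p = 3.06e-07), while Adam10 itself was not called. Frmd8, a partner of the iRhoms that carry ADAM17, fell 1.24-fold (adjusted p = 6.29e-06), and Bsg, an inducer of MMPs, fell 1.29-fold (adjusted p = 8.90e-06). Cd44, which can anchor MMPs, was called higher at 1.07-fold (adjusted p = 0.0297). The Cd44 call was lost when any library other than static replicate 2 was left out (adjusted p 0.0611 to 0.108) and with the GC and length offset (0.651).

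Of 23 tested surface proteins that ADAMs or MMPs release, 3 were higher and 10 lower (median -0.21). Tnfrsf1a, a TNF receptor, fell 1.34-fold (adjusted p = 3.77e-07), Prnp, the prion protein gene, 1.27-fold (adjusted p = 2.57e-06) and Mcam, a melanoma adhesion molecule, 1.30-fold (adjusted p = 2.67e-06). Met, the receptor of hepatocyte growth factor, was called higher at 1.07-fold (adjusted p = 0.0260). Its call was lost without static replicate 1 or any stretched library (0.0573 to 0.114) and with the GC and length offset (0.767).

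Of 20 tested matrix substrates, 7 were higher and 4 lower (median 0.13). The perlecan gene Hspg2 rose from 370 ± 19.4 to 460 ± 11.7 CPM (adjusted p = 1.67e-05), the laminin chain gene Lama5 rose 1.42-fold (adjusted p = 0.000423) and the collagen IV gene Col4a1 1.22-fold (adjusted p = 0.00134). Lamb2, another laminin chain gene, fell 1.16-fold (adjusted p = 0.000612). Of 19 heparan sulfate genes, targets of heparanase among them, 3 were higher, with Hspg2 of lowest p, and 6 lower. Glce, an epimerase of the chains, fell 1.38-fold (adjusted p = 8.56e-07), Ext1, a polymerase of the chains, 1.19-fold (adjusted p = 0.000720), and the carrier Sdc4 1.18-fold (adjusted p = 0.00142).

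Of 9 tested genes of copper delivery and lysyl oxidase scaffolds, 1 was higher and 3 lower. The copper pump gene Atp7a rose by 0.16 on the log2 scale (adjusted p = 0.00265). Ltbp4 fell 1.57-fold (adjusted p = 2.74e-06) and Fbln5 from 285 ± 19.4 to 237 ± 4.59 CPM (adjusted p = 0.000170), while Loxl2 and Loxl3 were not called. Efemp2, another scaffold, was called lower at 1.15-fold (adjusted p = 0.0210), and lost the call with library size scaling (0.0790), without static replicate 2 (0.0673), without stretch replicate 1 (0.0762), with DESeq2 (0.0625) and with the offset for GC and length (0.135).

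**Figure D5:**
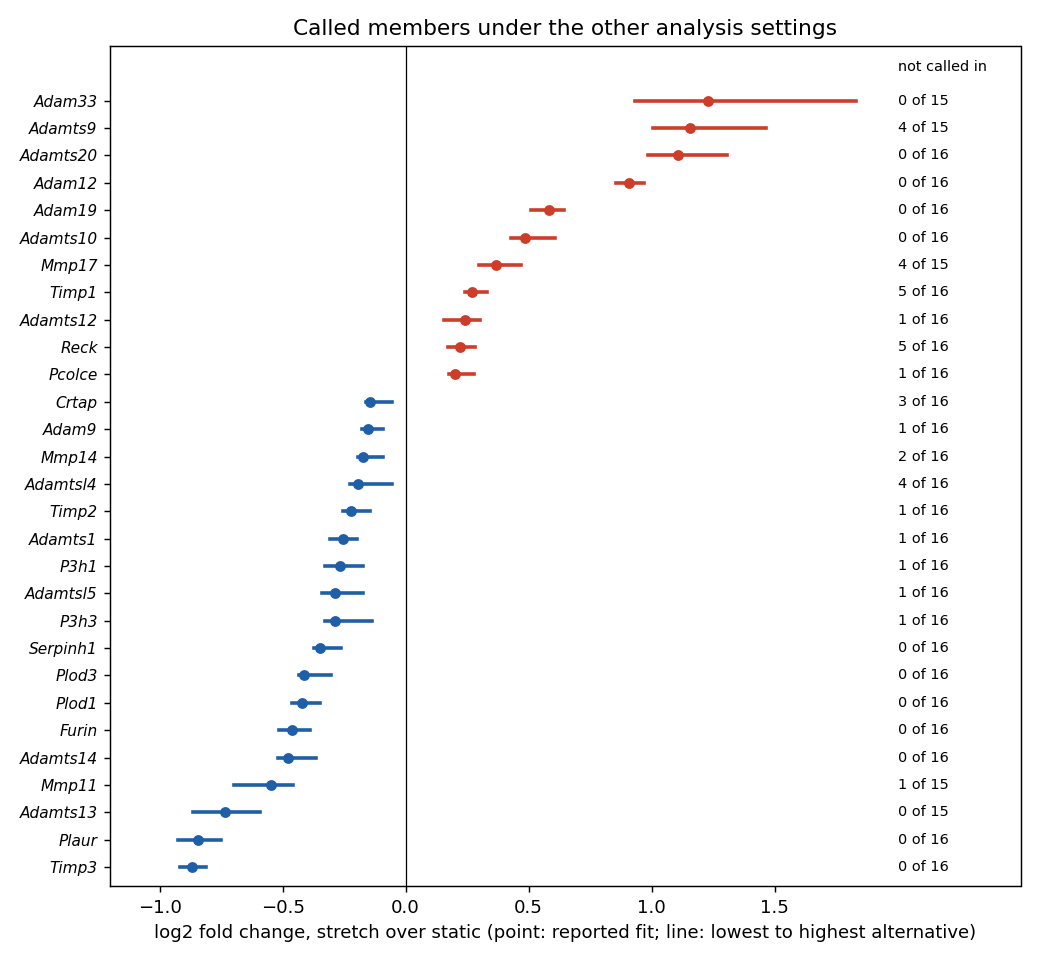
Log2 fold change (stretch over static) of the 29 called members as reported (points) with the lowest and highest value over up to 16 other analysis settings (lines), and the number of settings in which the call was lost. No line crosses 0, and Timp3, Plaur, Plod1, Plod3, Furin, Adamts14, Adam12, Adam19, Adamts10, Adamts20, Adamts13, Adam33 and Serpinh1 kept their call in each setting run.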

How the data were processed

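RNA from 3 static and 3 cyclically stretched samples, grouped by the condition in the labels, was compared. The deposited table holds the authors' estimated counts per gene, in whole numbers and unscaled. Per the submitters' processing notes, Salmon 1.4.0 was used, and mm10 and GRCm38 are named as builds. Their roles, and the index, gene summing, rounding and strand, were not given in the sources used here. Reads of similar or overlapping genes can therefore be shared.

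RefSeq (GRCm38.p6) gave symbols for 14875 of 14883 rows. In edgeR 4.0.16 (R 4.3.3), filterByExpr with a minimum count of 10 kept 12377 genes. TMM scaling and a two-sided quasi-likelihood test of the group (4 residual degrees of freedom) were used, with Benjamini-Hochberg adjusted p under 0.05 called. CPM per kilobase uses the longest GENCODE M21 transcript. An exact rank test of 3 against 3 samples has a lowest p of 0.1, so the calls depend on the spread shared across genes. In a test on simulated data with known changes, 63.3% of 1.2-fold and 88% of 1.5-fold changes were recovered. Of the calls 12.9% were false, above the nominal level. Far fewer genes were changed in that simulation than were called here, so its share of false calls may not carry over.

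The members and lists were chosen with earlier results of these data known. Named were all called members, the most abundant member per role, and per list the 3 called genes of lowest p in its main direction plus 1 in the other. Other members are named to account for them. ADAMs were split by catalytic site from general knowledge, since reference proteins were not at hand. Alternatives were RLE, upper quartile and library size scaling, no filter, 5 CPM in 3 libraries, DESeq2 1.42.0, limma-voom (limma 3.58.1), glmTreat at 1.2-fold, the replicate number as a block, a GC and length offset, and leaving out each library.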

Additional observations from a re-analysis of the deposited data

How the results depend on the processing

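The count of called members was 29 and lay between 24 and 32 over the alternatives other than glmTreat, and no called member changed direction. With glmTreat against 1.2-fold, which asks for a larger change by construction, 13 members (5 higher, 8 lower), 1592 genes (679 higher, 913 lower) and 12 genes of the other lists (1 higher, 11 lower) were called. DESeq2 called 7 members and 9 genes of the other lists higher, in place of 11 and 15. Library size scaling, which moved the median of all genes to 0.06, called 27 genes of the other lists higher, and leaving out each library called 8 to 16. The members' median log2 fold change was near 0 and turned positive with upper quartile factors (0.0087) and library size scaling (0.0536). It was -0.0915 without the count filter, -0.0926 with 5 CPM in 3 libraries, and -0.0462 to 0.0038 when libraries were left out, the highest without stretch replicate 1. The cause was not tested.

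The labels do not say whether the replicate numbers pair the samples, and with so few samples per group correlations cannot settle it. Deviations of same-numbered samples from their group means correlated at -0.0118, 0.00505 and -0.0770, and not every sample correlated best with its own number. With the number as a block, 29 members (11 higher, 18 lower), 48 genes of the other lists and 5967 of all genes were called, and the members' median was -0.0078. The block ended the calls of Cd44 (adjusted p = 0.0515) and Met (0.0551) among the genes named here. Depth limits Adamts9, Adam33 and the untested members other than Mmp24, which have few counts per library.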

Other observations

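Mmp24, a membrane-type MMP, had 125, 1 and 1 counts in the static libraries and 2, 2 and 111 counts in the stretched ones. Static replicate 1 and stretch replicate 3 thus held nearly all of its reads, and it was not tested. Mmp28 had 9, 11 and 12 counts in static and 6, 3 and 1 counts in stretched libraries. It did not pass the count filter, and without the filter edgeR gave it a log2 fold change of -1.77 (adjusted p = 0.00933).

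Some members share their span with another annotated gene. Iah1, which overlaps Adam17, measured 38.5 CPM in static and 20.9 CPM in stretched libraries (log2 fold change -0.88), while Adam17 differed by -0.01. Mib2, which overlaps Mmp23, measured 36.3 and 22.5 CPM, while Mmp23 stayed below 0.8 CPM. The non-coding gene 4930520O04Rik, which overlaps Crtap, measured 0.349 and 0.683 CPM. Whether these pairs share reads was not tested.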
